A study of Homo sapiens with 42 samples.

Results

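The blood group and Rh complex set held 9 genes whose proteins sit in the red cell membrane and carry, or are needed for, blood group antigens. They are KEL (Kell), RHAG, RHCE and RHD (Rh), BCAM (Lutheran), ERMAP (Scianna), ICAM4 (Landsteiner-Wiener), AQP1 (Colton) and SLC14A1 (Kidd). The rows were found by matching the Ensembl identifiers of the count tables to these symbols, and all 9 were among the 58243 genes counted. Their CPM, the read pairs of a gene scaled by the library total as adjusted by TMM normalization, were followed in all 14 groups of the series.

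The cells were K562, an established line from a chronic myeloid leukaemia that grows under the BCR-ABL1 kinase and has erythroid features. They were left untreated (CTRL) or given 1 μM imatinib (IM), which inhibits that kinase, 5 μM JTE-607 (JTE), an inhibitor of the 3′ end nuclease CPSF73, or KCl at 110 mM, a hyperosmotic stress. The 9 mRNA groups (polyadenylated RNA of whole cells) were CTRL, IM 1h, 6h and 18h, JTE 1h, 6h and 18h, and KCl 1h and 3h. The 5 nuclear groups (nuclear RNA depleted of rRNA) were CTRL, IM 1h and 18h, JTE 1h and KCl 1h. Every group consisted of 3 libraries from separate repeats of the experiment, so the spread is that of a single cell line, and no second line bears on it. All cells of a repeat were harvested together, whatever the length of treatment.

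As background, RHD and RHCE are the tandem genes of the D and of the C/c and E/e antigens, and their proteins reach the red cell surface only with the related glycoprotein RHAG, which conducts ammonia. This core is joined by CD47, glycophorin B and LW, and is linked to band 3 and to the ankyrin skeleton. Kell is a zinc endopeptidase that is tied by a disulfide bond to the membrane protein XK, and most of these genes are switched on during erythroid maturation under GATA1 and KLF1.

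Totals lay between 16439848 and 22505595 counts in the mRNA libraries, except in KCl 1h replicates 2 and 3 with 62953314 and 42474454, and between 16175394 and 25103205 in the nuclear libraries. The erythroid label of the line was borne out by its markers: 12 of 12 had a mean of 1 CPM or more in every group, and their sum was 4370 to 5840 CPM in the CTRL mRNA libraries. Of 8 megakaryocyte markers GP1BB and PF4 were at 0 in all libraries, and the list summed to 2.603 to 7.22 CPM in mRNA. The lymphocyte list summed to 1.63 to 9.48 CPM and the monocyte and granulocyte list to 3.31 to 19.7 CPM. The endothelial or epithelial list of 4 genes was not near 0: it summed to 238 to 244 CPM in the CTRL mRNA libraries, nearly all from KRT18 and EPCAM. The mRNA libraries CTRL 1 and CTRL 2 may carry each other's number. The study's list of read totals gives them the other way round, and their deviations from the group mean followed those of the treated libraries of the other number. Both are CTRL, so group means, fold changes and tests without pairing do not depend on it. In bulk RNA, fewer cells that express a gene and less of its RNA per cell cannot be told apart.

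The upstream sequences of 6 of the genes are shown because these genes changed under imatinib, together in direction but not in size. BCAM also rose, but it had low counts and its sequence is not shown. The RHD and RHCE windows also allow the upstream sequences of the pair to be compared, which says nothing on how far their reads can be separated. Each is the 250 bases before the RefSeq transcription start on GRCh38.p14, written 5′ to 3′ on the strand of the gene, with matches to the GATA motif in capitals. The motif searched, on either strand, was AGATAA or the same letters ending in G (AGATAG), and likewise TGATAA or its form ending in G (TGATAG). In the annotation of the count tables KEL, RHCE, RHD and AQP1 also have transcripts that begin upstream of this start.
KEL promoter, chr7:142962364-142962613, minus strand: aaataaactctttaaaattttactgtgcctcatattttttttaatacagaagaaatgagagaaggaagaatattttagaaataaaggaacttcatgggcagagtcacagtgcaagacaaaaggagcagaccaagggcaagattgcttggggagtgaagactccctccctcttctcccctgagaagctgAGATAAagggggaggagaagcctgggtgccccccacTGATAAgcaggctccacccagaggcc
RHAG promoter, chr6:49636840-49637089, minus strand: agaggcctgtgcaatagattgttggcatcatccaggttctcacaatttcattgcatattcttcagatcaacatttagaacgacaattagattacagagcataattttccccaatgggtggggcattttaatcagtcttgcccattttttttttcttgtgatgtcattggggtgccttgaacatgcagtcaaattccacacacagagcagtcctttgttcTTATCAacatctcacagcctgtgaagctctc
RHD promoter, chr1:25272259-25272508, plus strand: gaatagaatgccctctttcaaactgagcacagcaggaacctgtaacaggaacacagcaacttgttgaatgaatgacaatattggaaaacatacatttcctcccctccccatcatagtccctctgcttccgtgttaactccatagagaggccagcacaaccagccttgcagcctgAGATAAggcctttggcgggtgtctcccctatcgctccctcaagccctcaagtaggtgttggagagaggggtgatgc
RHCE promoter, chr1:25420826-25421075, minus strand: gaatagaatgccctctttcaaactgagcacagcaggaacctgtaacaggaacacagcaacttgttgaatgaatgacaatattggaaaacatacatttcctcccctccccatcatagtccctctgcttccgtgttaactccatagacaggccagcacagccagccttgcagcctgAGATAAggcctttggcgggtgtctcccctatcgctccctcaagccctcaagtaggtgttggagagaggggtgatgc
AQP1 promoter, chr7:30911603-30911852, plus strand: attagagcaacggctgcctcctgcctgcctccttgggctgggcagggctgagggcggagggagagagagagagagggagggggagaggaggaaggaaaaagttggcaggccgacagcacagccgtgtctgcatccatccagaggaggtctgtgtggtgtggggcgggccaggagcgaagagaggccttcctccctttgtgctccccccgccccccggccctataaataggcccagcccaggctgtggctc
ERMAP promoter, chr1:42816872-42817121, plus strand: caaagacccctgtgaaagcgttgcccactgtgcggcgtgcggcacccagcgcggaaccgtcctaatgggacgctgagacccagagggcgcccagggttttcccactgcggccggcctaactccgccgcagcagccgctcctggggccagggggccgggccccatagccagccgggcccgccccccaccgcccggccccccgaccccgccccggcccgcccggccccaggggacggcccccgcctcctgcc

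A GATA match was present in the windows of 4 of the 9 genes. KEL had matches starting 62 and 26 bases before the start, RHAG had TTATCA, the match on the opposite strand, 31 bases before it, and RHD and RHCE each had AGATAA 76 bases before it. The windows of AQP1, ERMAP, BCAM, ICAM4 and SLC14A1 held none. Of 34788 RefSeq promoter windows of this length, 22.4% held at least 1 match. The CACCC-type motif CCNCNCCC, the letters bound by KLF-family factors, was present on either strand in 8 of the 9 windows, all but that of SLC14A1, and in 53.3% of all windows. A match is a description of the letters only.

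The RHD and RHCE windows were identical at 248 of 250 bases (99.2%). They differed by G146C and A158G, with the base of RHD first, then the position counted from 1 at the 5′ end of the window, then the base of RHCE. The coding sequences of the pair were identical at 1207 of 1251 bases (96.5%), whereas RHD shared 54.8% and RHCE 54.4% of aligned coding bases with RHAG. Of the 150-base windows of the RHD transcript, 16 of 2665 (0.6%) occurred unchanged in any transcript of RHCE, and 16 of 1422 (1.1%) the other way round. Only uniquely mapped reads were counted, so pairs that lay wholly in such stretches could be lost to both genes. Shorter reads and pairs with a mate outside were not examined, so these shares do not measure the uncertainty of the counts. Of the exon bases, 113 of RHCE lie opposite TMEM50A and 47 of RHD opposite RSRP1, where pairs were not assigned.

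In untreated cells the set spanned a wide range of mRNA levels. Set on a per-length scale, as CPM divided by the exon length (RPKM), the CTRL means were 289 for RHAG, 13.9 for ERMAP, 13.4 for KEL, 7.17 for RHD, 5.92 for RHCE, 0.766 for AQP1 and 0.242 for BCAM. SLC14A1 was at 0.00871, and no pair was counted for ICAM4. RHAG was thus far above every other gene of the set that could be counted, which leaves out ICAM4, and ERMAP and KEL could not be put in order. Alignments across introns over 10000 bases were not allowed, which can lower RHAG with 1 such intron and RHD and RHCE with 2 each.

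**Figure D1:**
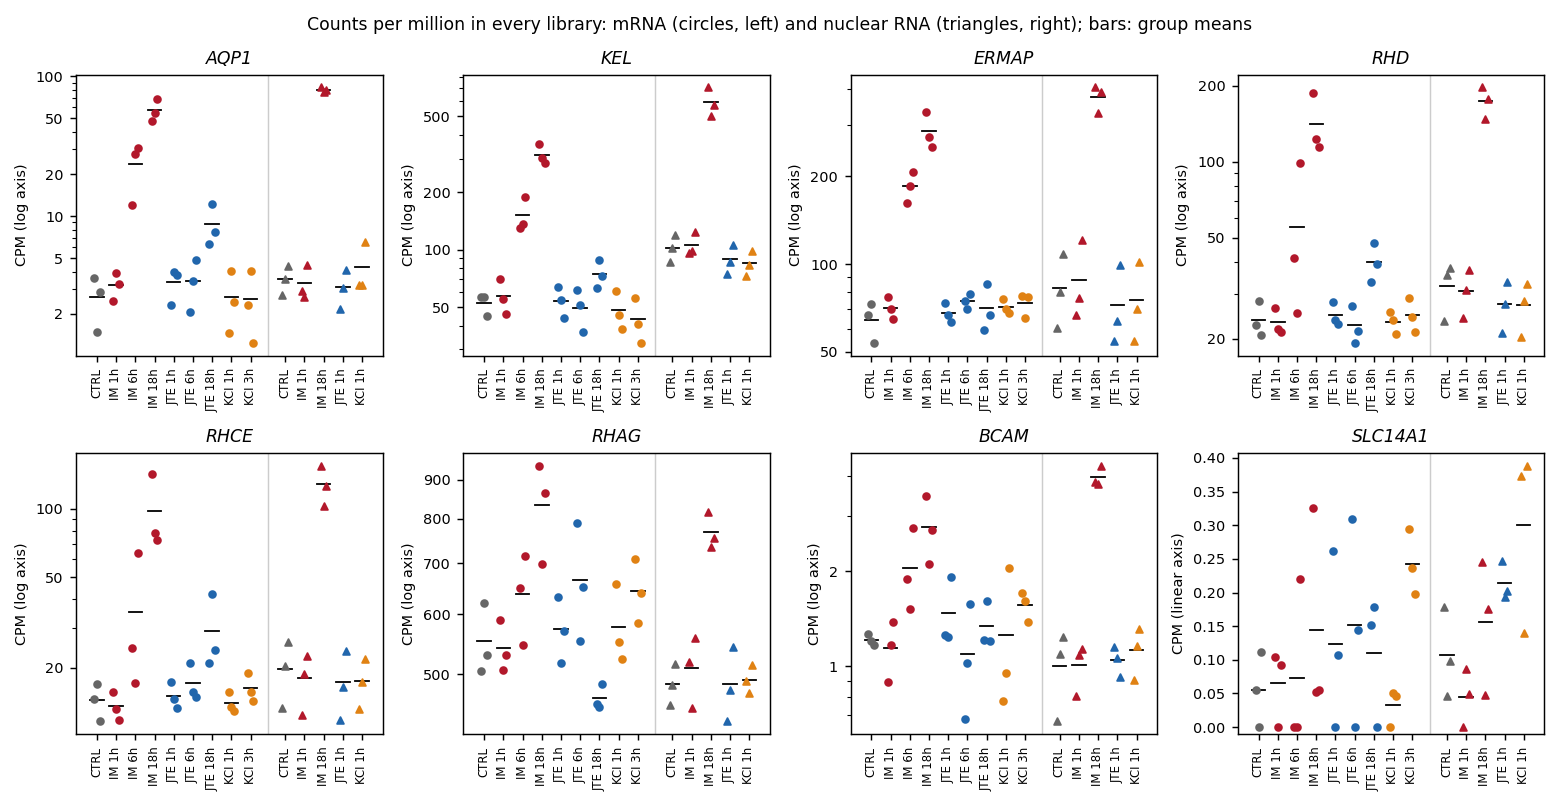
CPM of 8 genes of the set in each library, on log axes except for SLC14A1. Points are libraries, bars are group means, circles are mRNA and triangles nuclear RNA. In AQP1, KEL, ERMAP, RHD and RHCE the 3 IM 18h libraries lie above all CTRL libraries of the same RNA fraction, and RHAG rises least.

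The time course of imatinib asked how the expression of these genes changed once the kinase was inhibited. 5 of the 7 genes with enough counts to be tested were higher at 6 h and 6 were higher at 18 h, in the order AQP1, RHCE, KEL, RHD, ERMAP and BCAM at 18 h, and none was called lower at either time. At 1 h none was called. A gene was called by edgeR's quasi-likelihood test at a Benjamini-Hochberg adjusted p under 0.05 over all genes tested and a log2 fold change beyond 0.6.

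At 1 h of IM the 7 log2 fold changes lay between -0.09 and 0.29. None of the 7 had an unadjusted p under 0.05 and DESeq2 called none, while 0.0166% of all genes tested were called in either direction. At 6 h 5 of 7 were called higher, against 5.82% of the 18095 genes tested, and at 18 h 6 of 7, against 17.2%. No gene of the set was called lower, where 4.12% of all genes were lower at 6 h and 13.2% at 18 h. The median log2 fold change of the 7 was 1.29 at 6 h and 2.57 at 18 h, and that of all genes 0.036 and 0.038.

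AQP1 (ENSG00000240583, chromosome 7, 30911694 to 30925516), the water channel of the red cell, had the largest change. It stood at 3.58, 1.47 and 2.84 CPM in the CTRL libraries, at 12.03, 27.9 and 30.5 after IM 6h and at 47.9, 55.1 and 69.3 after IM 18h. All treated libraries were above all CTRL libraries, and the 6 h and 18 h libraries did not overlap. The log2 fold change was 3.15 at 6 h (SE 0.44, edgeR adjusted p 4.76e-05) and 4.45 at 18 h (SE 0.45, edgeR adjusted p 1.43e-07). A gene on the same strand, ENSG00000250424, shares 910 of its 3435 exon bases but held at most 1 count in any library.

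KEL (ENSG00000197993, chromosome 7, 142941114 to 142962681), the Kell endopeptidase, rose from 56.8, 56.2 and 45.0 CPM in CTRL to 130, 136 and 190 CPM at 6 h and 358, 304 and 283 CPM at 18 h. The 3 groups did not overlap. Its log2 fold change was 1.53 (SE 0.22, edgeR adjusted p 6.24e-05) at 6 h and 2.58 (SE 0.23, edgeR adjusted p 2.03e-08) at 18 h. ERMAP (ENSG00000164010, chromosome 1, 42817124 to 42844989), a butyrophilin-like protein of the erythroid membrane, was at 66.6, 73.0 and 53.6 CPM in CTRL and at 162, 185 and 207 CPM at 6 h, and reached 332, 274 and 253 CPM at 18 h. These groups did not overlap either. Of the set ERMAP had the smallest standard error relative to its change, with log2 fold changes of 1.52 (SE 0.14, edgeR adjusted p 1.99e-07) and 2.15 (SE 0.14, edgeR adjusted p 2.02e-10). Of its exon bases, 478 lie opposite ZNF691-DT and 63 opposite SVBP, where pairs were not assigned.

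The Rh antigen genes moved together. RHD (ENSG00000187010, chromosome 1, 25272393 to 25330445) was at 22.7, 28.1 and 20.6 CPM in CTRL, at 41.8, 25.3 and 99.2 CPM at IM 6h and at 187, 123 and 114 CPM at IM 18h. RHCE (ENSG00000188672, chromosome 1, 25362249 to 25430192) was at 14.6, 16.9 and 11.7 CPM in CTRL, at 24.4, 17.1 and 64.2 CPM at 6 h and at 142, 77.9 and 72.7 CPM at 18 h. At 18 h both genes were above CTRL in every library, whereas at 6 h replicate 2 of RHD lay inside the CTRL range and replicate 3 of both genes lay far above the other libraries.

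At 18 h the log2 fold change was 2.57 for RHD (SE 0.32, edgeR adjusted p 1.49e-06) and 2.76 for RHCE (SE 0.37, edgeR adjusted p 3.94e-06). At 6 h it was 1.22 for RHD (SE 0.31, edgeR adjusted p 0.00894) and 1.29 for RHCE (SE 0.35, edgeR adjusted p 0.0156). The 6 h calls rested on single libraries. Without IM 6h replicate 3 the log2 fold changes were 0.47 for RHD and 0.51 for RHCE (edgeR adjusted p 0.2 and 0.302), and 3 of the 7 genes were called. Without CTRL replicate 3 they were 1.09 and 1.12 (edgeR adjusted p 0.0561 and 0.0897), also with 3 genes called, and without CTRL replicate 1 RHCE was at 1.30 (edgeR adjusted p 0.0545).

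The same library stood apart in the erythroid markers. Their sum was 6688, 5663 and 9534 CPM in IM 6h replicates 1, 2 and 3, and 17469, 12463 and 12383 CPM in those of IM 18h, compared with 4370 to 5840 CPM in CTRL. HBE1, HBG2, TFRC and HBG1 had the largest means of the list, so the sum does not stand for every marker. GATA1 alone had a lower mean at IM 18h, 144 CPM beside 166 in CTRL mRNA. All 7 tested genes were highest in replicate 3 at 6 h, as was this sum. At 18 h the sum and 6 of the 7 genes were highest in replicate 1, and AQP1 was lowest there. At IM 18h the lymphocyte markers summed to 1.63 to 2.48 CPM (CTRL 4.96 to 6.08) and the endothelial or epithelial markers to 164 to 169 CPM (CTRL 238 to 244), both without overlap. The megakaryocyte markers, at 4.40 to 6.24 CPM (CTRL 2.87 to 4.68), and the monocyte and granulocyte markers, at 3.31 to 7.81 CPM (CTRL 5.92 to 11.5), overlapped. The part of these marker levels in the values of the set was not tested.

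The share of RHCE in the counts of both Rh genes was 36.2 to 39.2% in CTRL, 36.9 to 40.3% at IM 6h and 38.8 to 43.1% at IM 18h, so the IM 18h and CTRL libraries overlapped. In JTE 6h it was 40.8 to 44.9%, above all CTRL mRNA libraries. In nuclear RNA it was 36.2 to 40.5% in CTRL and 41.2 to 43.9% at IM 18h, with no overlap. These shares were not tested.

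RHAG (ENSG00000112077, chromosome 6, 49605158 to 49636839), the Rh-associated glycoprotein, changed least. It was at 505, 621 and 531 CPM in CTRL, at 648, 546 and 715 CPM at IM 6h and at 940, 697 and 865 CPM at IM 18h. The 6 h libraries overlapped with CTRL and the 18 h libraries did not. The log2 fold change was 0.21 at 6 h (SE 0.13, edgeR adjusted p 0.313). At 18 h it was 0.59 (SE 0.13, edgeR adjusted p 0.000811), which is under the fold threshold. It passed that threshold without CTRL replicate 2 (0.66) or without IM 18h replicate 2 (0.68).

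BCAM (ENSG00000187244, chromosome 19, 44809059 to 44821420), the Lutheran glycoprotein and a laminin receptor, was close to the detection limit. It had 23, 23 and 21 counts in CTRL, 44, 30 and 50 counts at IM 6h and 64, 40 and 49 counts at IM 18h, equal to means of 1.21 ± 0.0491 CPM in CTRL and 2.76 ± 0.687 CPM at 18 h (SD, n = 3). The treated libraries were above CTRL at both times. Its log2 fold change was 0.75 at 6 h (SE 0.34, edgeR adjusted p 0.133), which was not called, and 1.18 at 18 h (SE 0.33, edgeR adjusted p 0.00591).

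SLC14A1 (ENSG00000141469, chromosome 18, 45724127 to 45752520), the urea transporter of the Kidd antigens, held 0 to 6 counts in the mRNA libraries, with 8 of 27 at 0, and 0 to 8 counts in the nuclear libraries. It did not pass the filter on low counts and was not tested. The mRNA group with the highest mean was KCl 3h with 6, 5 and 4 counts, beside 1, 0 and 2 in CTRL, and in nuclear RNA it was KCl 1h with 7, 3 and 8 counts, beside 4, 1 and 2 in CTRL. A library with 0 counts allows a level of up to 3 counts, for counting error only. By library totals without TMM adjustment that is 0.0477 to 0.182 CPM over the mRNA libraries. No change under imatinib was detectable at this depth.

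**Figure D2:**
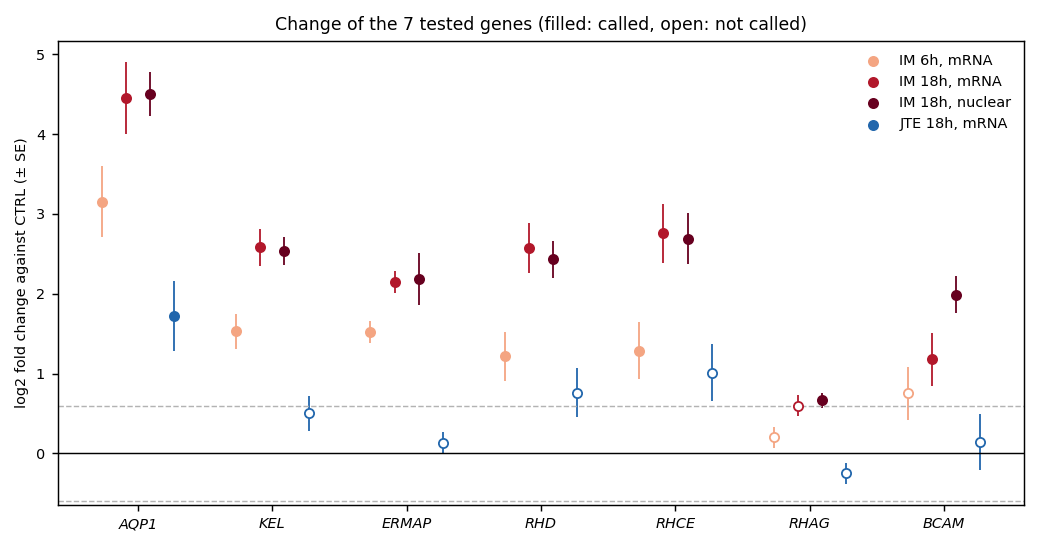
Log2 fold change against CTRL of the 7 tested genes, with bars of 1 SE; filled points were called and dashed lines mark the fold threshold of 0.6. AQP1 reaches 4.45 in mRNA and 4.51 in nuclear RNA after IM 18h, RHAG stays between 0.59 and 0.66, and after JTE 18h the filled point is that of AQP1 at 1.72.

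To follow the course between 6 and 18 h, the time points were tested against each other. 5 of the 7 genes were higher at 18 h than at 6 h (2.48% of all genes tested). The log2 difference was 1.47 for RHCE (SE 0.35, edgeR adjusted p 0.0126), 1.35 for RHD (SE 0.30, edgeR adjusted p 0.00913), 1.30 for AQP1 (SE 0.38, edgeR adjusted p 0.0382), 1.05 for KEL (SE 0.22, edgeR adjusted p 0.00503) and 0.63 for ERMAP (SE 0.13, edgeR adjusted p 0.00522). RHAG differed by 0.39 and BCAM by 0.43, and neither was called (edgeR adjusted p 0.0656 and 0.434). No call of this comparison held in all fits with a library left out: without IM 6h replicate 1 none of the 5 was called, without IM 18h replicate 1 only KEL, and without IM 6h replicate 2 RHD, KEL and ERMAP. The direction did not change in any of them.

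Nuclear RNA set the same treatment beside the values of whole-cell mRNA. After 18 h of IM all 7 tested genes were higher (17.2% of the 21929 genes tested) and none was lower (15.4%). AQP1 went from 2.73, 3.55 and 4.36 CPM to 83.5, 77.3 and 80.3 CPM, with a log2 fold change of 4.51 (SE 0.28, edgeR adjusted p 7.11e-09). KEL went from 85.6, 102 and 120 CPM to 710, 500 and 573 CPM, which is a log2 fold change of 2.54 (SE 0.17, edgeR adjusted p 5.4e-09). Treated and CTRL libraries were far apart in both genes.

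ERMAP rose in the nucleus from 60.2, 80.1 and 108 CPM to 405, 331 and 391 CPM, a log2 fold change of 2.18 (SE 0.32, edgeR adjusted p 0.000152). RHD rose from 23.5, 35.6 and 38.0 CPM to 197, 147 and 178 CPM (2.43, SE 0.23, edgeR adjusted p 9.29e-07) and RHCE from 13.3, 20.3 and 25.9 CPM to 155, 103 and 126 CPM (2.69, SE 0.32, edgeR adjusted p 2.28e-05). None of these groups overlapped with CTRL. BCAM rose from 15, 24 and 25 counts to 94, 79 and 74 counts (log2 fold change 1.99, SE 0.23, edgeR adjusted p 8.48e-07). RHAG, at 455, 484 and 515 CPM in CTRL and 816, 735 and 755 CPM after IM 18h, again changed least (0.66, SE 0.098, edgeR adjusted p 1.45e-05), this time past the fold threshold.

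Whether nuclear RNA and mRNA differed in their change at 18 h was tested in a single model. None of the 7 genes was called (0.0901% of all genes tested). For 6 of them the difference lay between -0.09 and 0.12 on the log2 scale, with standard errors of 0.16 to 0.41. For BCAM it was 0.86 (SE 0.37, unadjusted p 0.0313, edgeR adjusted p 0.941), the single gene of the set with an unadjusted p under 0.05. After 1 h of IM in the nucleus the log2 fold changes lay between -0.14 and 0.09 and none was called (0.0456% of all genes), and the difference between fractions at 1 h also gave no call (0.0% of all genes).

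The balance within the Rh core followed from these values. Per length, RHAG exceeded the sum of RHD and RHCE by a ratio of 20.6 to 25.2 in the CTRL mRNA libraries. After IM 6h the ratio was 6.64 to 19.5, and after IM 18h 4.28 to 7.02, in each case below every CTRL library. In JTE 18h it was 7.45 to 12.8, also below CTRL. The ratio was 20.7 to 27.1 in the other mRNA groups, where it overlapped with or exceeded that of CTRL. In nuclear RNA it fell from 12.2 to 18.9 in CTRL to 3.47 to 4.43 after IM 18h. The ratio was not tested as such.

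**Figure D3:**
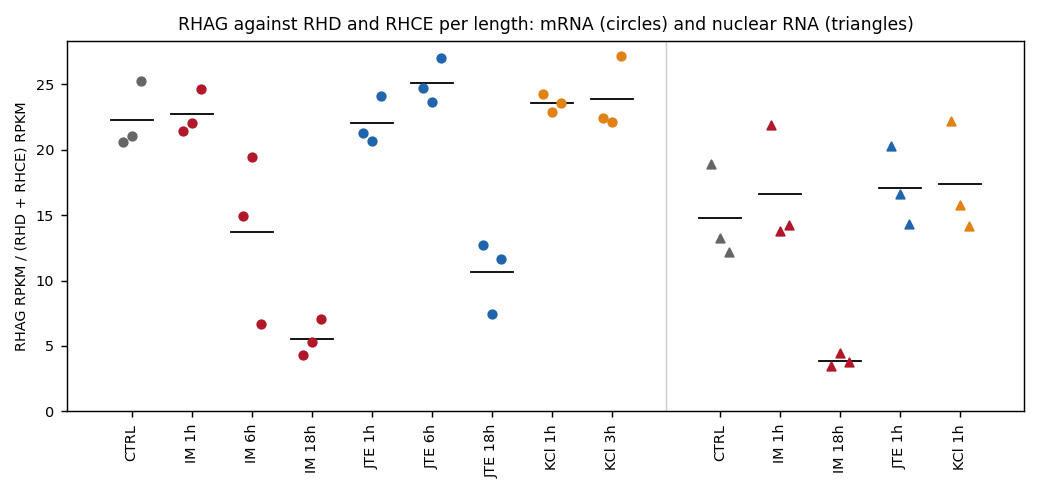
Ratio of RHAG RPKM to the summed RPKM of RHD and RHCE in each library, with bars at the group means, circles for mRNA and triangles for nuclear RNA. In mRNA the IM 18h libraries lie at 4.28 to 7.02, with IM 6h replicate 3 inside that range at 6.64, and the JTE 18h libraries at 7.45 to 12.8. In nuclear RNA the IM 18h libraries are the lowest, at 3.47 to 4.43.

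JTE-607, the inhibitor of 3′ end cleavage, was given for the same times as imatinib. At 1 h none of the 7 genes was called in mRNA, with log2 fold changes of 0.04 to 0.36 (0.851% of all genes called in either direction), and none at 6 h, with -0.13 to 0.41 (13.2%). In the nucleus at 1 h they lay between -0.24 and 0.07 with no call (8.52%), and the difference between fractions gave none (0.0605%). In these 4 tests no gene of the set had an unadjusted p under 0.05, and DESeq2 called none in the comparisons with CTRL.

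At 18 h of JTE a single gene was called higher (3.29% of all genes). AQP1 was at 6.28, 12.1 and 7.69 CPM, above all 3 CTRL libraries, with a log2 fold change of 1.72 (SE 0.44, edgeR adjusted p 0.0153). The call was lost without CTRL replicate 2 (edgeR adjusted p 0.0873), CTRL replicate 3 (0.0502) or JTE 18h replicate 2 (0.0816). RHCE was at 21.0, 42.4 and 24.0 CPM and RHD at 33.5, 47.7 and 39.5 CPM, all above CTRL, and their log2 fold changes of 1.01 and 0.76 did not pass (edgeR adjusted p 0.0778 and 0.134), although RHCE was called by DESeq2 (adjusted p 0.0299) and both were called with only the 2 groups in the edgeR fit (adjusted p 0.0363 and 0.0119). KEL was also above CTRL in each library, at 63.1, 88.1 and 72.9 CPM (0.50, edgeR adjusted p 0.167).

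RHAG lay on the other side after JTE 18h. Its libraries were at 457, 453 and 485 CPM, below all of CTRL, and the log2 fold change of -0.25 did not pass (SE 0.13, edgeR adjusted p 0.271). Against JTE 6h, with 790, 553 and 650 CPM, RHAG was lower at 18 h by -0.51 (SE 0.13, edgeR adjusted p 0.00666), within the fold threshold, and without JTE 6h replicate 2 it passed at -0.629. In that comparison AQP1 was the gene called higher (7.76% of all genes), by 1.31 (SE 0.43, edgeR adjusted p 0.0311), and this call was lost without either JTE 6h replicate 1 or 2, or JTE 18h replicate 2 or 3. With the replicate number as a block KEL was called too (0.622, edgeR adjusted p 0.0141), which made 2 genes. The erythroid marker sum was 3137, 4510 and 3428 CPM in JTE 18h and 4333 to 7197 CPM in JTE 6h. Against CTRL mRNA, KLF1 and TAL1 had higher means in JTE 18h (93.1 and 187 CPM beside 85.5 and 154). The other erythroid markers had lower means there. The 4 lists of other cell types all lay above CTRL in JTE 18h, with sums of 5.54 to 7.22 CPM for megakaryocyte, 6.55 to 9.48 for lymphocyte, 12.5 to 14.7 for monocyte and granulocyte and 272 to 298 for endothelial or epithelial markers. The part of these levels in the values of the set was not tested for JTE either.

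Imatinib and JTE were compared directly at matched times. At 6 h 6 of the 7 genes were higher in IM than in JTE (13.6% of all genes). The log2 difference was 2.74 for AQP1, 1.61 for KEL, 1.31 for ERMAP, 1.30 for RHD, 1.04 for RHCE and 0.88 for BCAM, with edgeR adjusted p-values of 3.52e-05, 7.65e-06, 1.54e-07, 0.00238, 0.0251 and 0.0474. RHAG differed by -0.06 (SE 0.13, edgeR adjusted p 0.756). Without IM 6h replicate 3, RHD, RHCE and BCAM were no longer called and 3 genes were left. RHCE also lost its call without JTE 6h replicate 2 or 3, and BCAM without IM 6h replicate 1 or JTE 6h replicate 1 or 2.

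At 18 h all 7 were higher in IM than in JTE (16.7% of all genes). AQP1 differed by 2.73 (SE 0.41, edgeR adjusted p 1.58e-05), KEL by 2.08 (SE 0.23, 2.22e-07), ERMAP by 2.02 (SE 0.14, 3.34e-10), RHD by 1.82 (SE 0.31, 6.62e-05) and RHCE by 1.74 (SE 0.35, 0.000379). RHAG differed by 0.84 (SE 0.13, edgeR adjusted p 2.14e-05). BCAM differed by 1.04 (SE 0.33, edgeR adjusted p 0.0129) and lost its call without IM 18h replicate 1, JTE 18h replicate 1 or JTE 18h replicate 3.

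Hyperosmotic stress left no call in the set. In mRNA the log2 fold changes lay between -0.13 and 0.15 after KCl 1h (5.45% of all genes called), between -0.29 and 0.37 after KCl 3h (11.9%), and between -0.16 and 0.28 for 3 h against 1 h (3.29%). In the nucleus after KCl 1h, where 23.8% of all genes were called, the 7 genes lay between -0.27 and 0.29. The difference between fractions gave no call (0.668%). In none of these tests did a gene of the set have an unadjusted p under 0.05 by edgeR, and DESeq2, which was not run on the difference between fractions, made no call in the others. BCAM at KCl 3h, with 1.71, 1.61 and 1.39 CPM, lay above CTRL in all 3 libraries, at a log2 fold change of 0.37 that did not pass. SLC14A1, not tested, also lay above CTRL in all 3.

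ICAM4 (ENSG00000105371, chromosome 19, 10286967 to 10288522), an adhesion protein that binds integrins, had 0 counts in all 42 libraries. All 1427 of its exon bases lie inside ICAM4-AS1, a gene annotated on the opposite strand, and counting used no strand. Pairs over ICAM4 are therefore over exons of both genes and were left out as ambiguous, so this 0 gives no upper limit on its RNA. ICAM1, on the same strand, ends 352 bases before ICAM4 starts.

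**Figure D4:**
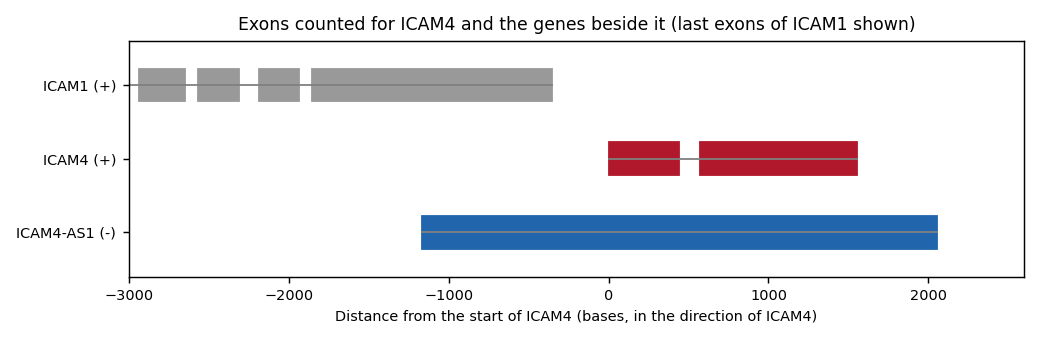
Exons of ICAM4, of ICAM1 before it and of ICAM4-AS1 on the opposite strand, as boxes by their distance in bases from the start of ICAM4. The single exon of ICAM4-AS1 spans both exons of ICAM4 and part of the last exon of ICAM1, so that no base of ICAM4 is its own.

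The antisense gene itself could be counted over 977 of its 3219 bases. ICAM4-AS1 had 4, 4 and 2 counts in CTRL mRNA, 14, 12 and 12 after JTE 6h and 12, 21 and 21 after JTE 18h. It was higher by 1.92 at JTE 6h (SE 0.54, edgeR adjusted p 0.0129) and by 2.40 at JTE 18h (SE 0.52, edgeR adjusted p 0.00446). In nuclear RNA it had 76, 65 and 83 counts in CTRL and 17, 39 and 41 after KCl 1h, a log2 fold change of -1.13 (edgeR adjusted p 0.00411). The groups did not overlap in any of these, but without strand the reads cannot be assigned to either strand.

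The partners of these proteins and other blood group genes were read from the same fits, in 4 lists that share some genes. Of 8 genes for partners of the Rh and Kell complexes, 7 were higher and none lower at IM 18h, both in mRNA (17.2% of all genes higher, 13.2% lower) and in nuclear RNA (17.2% and 15.4%), with a median log2 fold change of 1.99 and 2.18. Band 3 (SLC4A1), the anion exchanger, was higher by 6.53 (SE 1.28), protein 4.2 (EPB42) by 4.85, glycophorin B (GYPB) by 3.06, dematin (DMTN) by 2.00, XK by 1.66 and ankyrin (ANK1) by 0.83. CD47 was at 34.2, 35.4 and 51.1 CPM in CTRL and 43.1, 39.1 and 36.9 CPM at IM 18h, with a log2 fold change of -0.02. GYPB is near-identical in part to other genes of its family, so its counts are uncertain.

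At 6 h 5 of these 8 were called higher (5.82% of all genes), a count that fell to 0 with only the 2 groups in the fit and to 2 with a library left out. SLC4A1 was at 7.46, 14.3 and 413 CPM, beside 8.54, 5.76 and 3.90 in CTRL, and EPB42 at 8.84, 9.17 and 53.8 CPM, beside 4.24, 3.35 and 1.34. Replicate 3 was therefore far above the other libraries of its group in these genes too, as in RHD and RHCE. XK, the partner of Kell, was at 99.7, 96.0 and 178 CPM beside 67.0, 87.5 and 63.6 CPM.

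Of 28 further carriers of blood group antigens 27 were tested in mRNA, and at IM 18h 13 were higher (17.2% of all genes) and 2 lower (13.2%), with a median of 0.68. Besides those named, CR1, the complement receptor of the Knops antigens, was higher by 2.61, ABCG2 by 1.91, SMIM1, which determines the Vel antigen, by 1.82, ABCB6 by 1.35, SLC44A2 by 1.31, BSG by 0.69 and SLC29A1 by 0.68. The Dombrock gene ART4, with 1 count in each CTRL library, was at least 9.68-fold higher, and the Duffy gene ACKR1, with 1, 1 and 2 counts, at least 4.604-fold, taking 3 counts per library as the floor. The lower genes were EMP3 (-0.70) and CD44, with 4, 21 and 13 counts in CTRL and 3, 2 and 3 after IM. In nuclear RNA 13 of 28 were higher (17.2% of all genes) and 2 lower (15.4%), with a median of 0.63.

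Among 10 genes of blood group enzymes, all but PIGG glycosyltransferases of carbohydrate blood groups, 7 were tested, PIGG among them. ABO was higher at IM 18h by 1.51 (35.7, 34.3 and 35.5 CPM in CTRL, 82.1, 109 and 108 CPM after IM), GBGT1, the Forssman synthase, by 1.35 and GCNT2, the I-branching enzyme, by 0.66, while B3GALNT1, the globoside synthase, was lower by -1.33. This made 3 of 7 higher (17.2% of all genes) and 1 lower (13.2%), with a median of 0.52. After JTE 6h 1 was higher (6.73% of all genes) and 3 lower (6.47%), led by GBGT1 at -2.79. Of 16 relatives of the set (Rh, urea transporter, aquaporin, ICAM, endopeptidase and butyrophilin genes) 10 were tested in mRNA. No Rh or urea transporter relative was among the 10, and AQP3 and AQP11, the aquaporins tested, were not called at IM 18h. Of the 10, 1 was higher (17.2% of all genes) and 5 were lower (13.2%) at IM 18h, with a median of -0.45. The lower ones were ICAM1 (-1.81), MCAM (-1.46), ICAM2 (-1.04), BTN2A1 (-0.91) and ECE1 (-0.66), the higher one BTN3A2 (0.87).

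**Figure D5:**
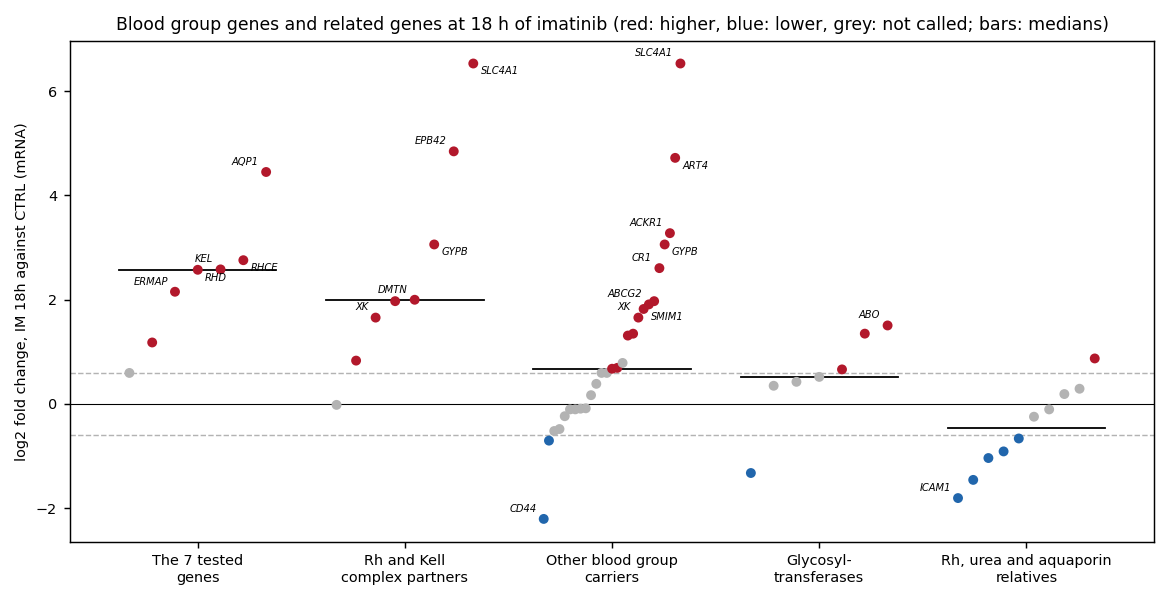
Log2 fold change in mRNA at IM 18h of each tested gene of the set and of 4 lists of related genes, with bars at the medians. Called genes are red (higher) or blue (lower), and most called genes past 1.5 are named. The set has its median at 2.57 and the partners at 1.99, and the tested relatives, none of them an Rh or urea transporter gene, lie mostly below 0.

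Some genes of these lists were called in other comparisons. AQP3, the water and glycerol channel of the Gill antigen, was higher by 1.51 at JTE 18h, at 46.6, 50.2 and 48.5 CPM beside 13.5, 17.0 and 20.4 CPM in CTRL. It was lower by -0.86 at IM 6h (edgeR adjusted p 0.0269) and was not called at IM 18h. After KCl, AQP11 was lower by -1.26 at 1 h and -1.37 at 3 h, and ICAM5 by -0.75 and -0.87. CD151 was lower after JTE at 6 and 18 h (-0.70 and -0.96).

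Likeness of pattern was described over the means of the 9 mRNA groups, among 9459 genes of at least 10 CPM in their highest group, with Pearson's r of log2 values. Within the set RHD and RHCE were most alike (0.992), followed by KEL and AQP1 (0.988), while RHAG reached 0.557 to 0.758 with the other 6. The genes most like AQP1 were DDB2, SLC35E2B and SELENBP1 (0.993 to 0.994), those most like KEL were CLSTN3, MXRA8 and SELENBP1 (0.992 to 0.996), and those most like ERMAP were TSC22D1, WNK4 and YPEL5 (0.994 to 0.998). RHD was closest to UROS, ACSS1 and SLC12A7 (0.995 to 0.997) and RHCE to ACSS1, FAM210B and RIMS3 (0.993 to 0.994). RHAG was closest to ERP29, ST13 and RGS10 (0.976 to 0.990), and BCAM to CDC34, WASF2 and EHD1 (0.980 to 0.981). All these values rest on the same 27 libraries and on 9 points each.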

How the data were processed

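Read counts of 27 mRNA and 15 nuclear libraries were used as deposited: whole read pairs for each gene, not normalized. The authors trimmed and deduplicated the reads, aligned them with STAR to GRCh38 keeping unique alignments and introns of up to 10000 bases, and counted pairs over exons with featureCounts without a strand option. The annotation release is not given in the sources used here. Of the 58243 gene identifiers, 57532 are in GENCODE 44, which gave the symbols.

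Each fraction had a single edgeR fit of all its libraries (version 4.0.16, R version 4.3.3) with a term per group, TMM normalization, filterByExpr and the robust quasi-likelihood test. This left 18095 genes in mRNA and 21929 in nuclear RNA, with 7 of the 9 blood group genes in each. The change in nuclear RNA minus that in mRNA was tested as an interaction over 12 libraries. CPM and RPKM were computed from the TMM-adjusted library totals and the exon lengths. Promoter windows are from RefSeq, and GENCODE 44 coding sequences were aligned with Biopython 1.88.

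Chi-square per gene between libraries of a group was 2.37 to 62.5, above sampling noise. That spread alone cannot show separate repeats, and each library counted as a replicate by its title and the series' design text. Replicate numbers are those of the titles, and the series' design text ties them to repeats of the experiment. Deviations from group means correlated between same-numbered treated and CTRL libraries at 0.234 to 0.891 in 12 of 12 nuclear pairs, where the numbers pair the libraries. In mRNA they did so at -0.367 to 0.877, above 0.1 in 7 of 24 pairs, and with the numbers of CTRL 1 and 2 exchanged at 0.0545 to 0.877, above 0.1 in 23 of 24. Titles and the names of the count columns were kept, and the block was fitted both ways for mRNA, the exchanged way being chosen after seeing the data. Alternatives were DESeq2 1.42.0, RLE normalization, no filter, no fold threshold, fits of only the groups compared, fits without genes over 1% of counts, a replicate block, and leaving out each library.

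The 9 genes and the 4 lists were chosen with earlier results of these data known. Values are given for the 9 genes, for list genes called at IM 18h or in 2 or more other comparisons, for the 3 genes most like each gene of the set, and for genes that overlap them or end within 10000 bases upstream. The values of 1 list gene are not reported here. CD47, not called, is named as a known partner of the Rh proteins and was chosen after its values were seen. Intervals and floors cover counting error only, since the reads carry no molecular identifiers.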

Additional observations from a re-analysis of the deposited data

Results flagged for a closer look

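The tested difference between 2 time points of the same treatment set these results apart. Under imatinib the change from 6 h to 18 h was called for RHCE (1.47 on the log2 scale), RHD (1.35), AQP1 (1.3), KEL (1.05) and ERMAP (0.63), each higher at 18 h in the means, and under JTE the change from 6 h to 18 h was called for AQP1 (1.31). Each of these 6 calls was lost in at least 1 fit with a library left out. Groups of 3 libraries are too small for a test of single outlying samples.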

How the results depend on the processing

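No direction of a called change was reversed by any alternative. With only the groups compared in the fit, the genes of the set called numbered 3 instead of 5 at IM 6h, 2 instead of 5 for IM 18h against 6h, 3 instead of 6 for IM 6h against JTE 6h, 3 instead of 1 at JTE 18h and 3 instead of 1 for JTE 18h against 6h; carriers higher at IM 6h numbered 4 instead of 9, carriers lower 0 instead of 1 at IM 6h and 1 instead of 2 at IM 18h, and partners higher at IM 6h 0 instead of 5. Without the filter on low counts 3 genes were called at JTE 18h and 4 for JTE 18h against 6h, with DESeq2 2 and 3. For JTE 18h against 6h, 2 were called without a fold threshold, 2 without genes over 1% of counts and 2 with the replicate block, also with mRNA CTRL 1 and 2 exchanged, which gave 2 instead of 1 glycosyltransferase higher at IM 6h. Without a fold threshold, carriers lower numbered 3 at IM 6h, 4 at IM 18h and 5 in nuclear IM 18h, and relatives higher at IM 6h 1 instead of 0. Besides KEL in JTE 18h against 6h, the block, either way, changed no call of the set.

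Over fits with a library left out, the genes called ranged from 3 to 5 at IM 6h, 0 to 1 at JTE 18h, 0 to 5 for IM 18h against 6h, 0 to 1 for JTE 18h against 6h and 3 to 6 for IM 6h against JTE 6h. At IM 6h carriers higher ranged from 3 to 9, carriers lower from 0 to 2, partners higher from 2 to 5 and relatives lower from 1 to 4; carriers lower at IM 18h ranged from 1 to 3 in mRNA and 1 to 2 in nuclear RNA, and relatives higher in nuclear IM 18h from 0 to 1. The cause of these shifts was not tested. Of the counts of called genes of the set, 160 of 173 under other alternatives and 139 of 150 with a library left out stayed within 1.5 times. Comparisons with 0 calls that stayed at 0 are among these. Every count that moved came from a comparison with calls, so these shares overstate how stable the calls were. Low counts limit BCAM and SLC14A1, and the overlap with ICAM4-AS1 limits ICAM4.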
